A study of Homo sapiens with 32 samples.

Results

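Genes known as targets of the transcription factor p53 were followed in HEK293T cells treated with an inhibitor of the enzyme that writes N6-methyladenosine (m6A). It was given alone, with siRNA against the m6A reader YTHDF2, or with emetine, an inhibitor of translation. Neither m6A nor translation was measured in these libraries. The 8 genes, CDKN1A, GADD45A, MDM2, PPM1D, ZMAT3, SESN1, TNFRSF10B and TNFRSF10D, were taken by name from the 60662 gene IDs counted in each of 32 libraries. All 8 passed the filter on low counts in every fit. The study asked how m6A depletion alters mRNA levels, and what YTHDF2 has to do with the decay of mRNAs that carry m6A in their coding sequence.

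HEK293T is a human embryonic kidney line that expresses the SV40 large T antigen, and every group was made from it. STM2457, an inhibitor of the m6A methyltransferase METTL3, was used at 20 µM in 0.2% DMSO, and control cells received 0.2% DMSO alone. The knockdown experiment held 4 groups of 3 libraries: YTHDF2 siRNA with STM2457 for 6 h, YTHDF2 siRNA with DMSO for 6 h, STM2457 for 6 h without that siRNA, and DMSO for 6 h without it. The siRNA was transfected at 20 nM, the 6 h treatment began 42 h later and cells were harvested at 48 h. Whether the libraries without YTHDF2 siRNA had received a control siRNA is not in the labels. Transfection and the lowering of YTHDF2 therefore cannot be told apart. The 9 h experiment held 4 libraries with STM2457 and 4 with DMSO. The emetine experiment held 4 groups of 3 libraries: STM2457 or DMSO for 6 h with emetine at 1.8 µM in the last 2 h, and STM2457 or DMSO for 6 h with DMSO in place of emetine.

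As background, p53 switches on genes that halt the cell cycle, repair DNA, change metabolism or start cell death, and it is held in check by products of its own targets. MDM2 is the ubiquitin ligase that sends p53 to the proteasome, and PPM1D (WIP1) is a phosphatase that removes activating phosphates from p53 and its kinases. In HEK293T cells the large T antigen binds p53 and blocks much of its activity as a transcription factor, so levels of these mRNAs in this line need not follow p53. YTHDF2 binds m6A and recruits the CCR4-NOT deadenylase, which starts mRNA decay. Emetine binds the ribosome and keeps it from moving along the mRNA.

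A pair of promoters shows the letters that p53 recognises. RefSeq promoter windows (GRCh38.p14, 250 bases before to 50 after a start) were at hand for 5 of the 8 genes, CDKN1A, MDM2, ZMAT3, PPM1D and SESN1. They were searched on both strands for the p53 consensus, a pair of 10-base half-sites at most 1 base apart with at most 3 letters off in all. Such a full site stood in windows of MDM2 and SESN1 and in 2.38% of all 35116 windows. A gene can have several windows, so that is not a share of genes. Sites outside these windows were not searched for. The matches below are in capitals, the first 2 letters off the consensus and ending 74 bases before an internal start of MDM2, the second 3 letters off and ending 29 bases before an internal start of SESN1. A match describes these letters only.
MDM2, chr12:68808908-68808957, plus strand: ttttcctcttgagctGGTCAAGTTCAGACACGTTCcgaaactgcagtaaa
SESN1, chr6:109009003-109009052, minus strand: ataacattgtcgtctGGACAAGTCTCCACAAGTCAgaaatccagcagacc

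The methylation complex prefers an adenosine in the letters GGACT of the mRNA (DNA spelling), and the study's interest lay in coding sequence. On the transcript strand of 1 GENCODE release 29 transcript a gene, GGACT stood once in the coding sequence of MDM2, 2 times in PPM1D, 3 times in SESN1, 2 times in TNFRSF10B and 1 time in TNFRSF10D. The coding sequences of CDKN1A, ZMAT3 and GADD45A held none. After the coding sequence it stood 8 times in MDM2, 3 times each in TNFRSF10B and TNFRSF10D and 2 times in CDKN1A. ZMAT3 and SESN1 held 1 there, and PPM1D and GADD45A held 0. Of 13550 coding genes tested, 76.2% held at least 1, so holding a motif is common. The coding motifs of MDM2 and PPM1D, the members that rose with STM2457 in every setting, are shown in capitals. Those of the other members, SESN1 with the most, are not printed. The coordinates are those of the 5 capital letters. No map of methylated sites was used, and a link between motif and change was not tested.
MDM2, chr12:68824370-68824374, plus strand: aggaatcatcGGACTcaggtacatc
PPM1D, chr17:60623736-60623740, plus strand: acgaatcgaaGGACTtggtgggagt
PPM1D, chr17:60648008-60648012, plus strand: ggggagtgatGGACTttggaatatg

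The genes lie at 7 places in the genome (GRCh38), the TRAIL receptors being near neighbours. CDKN1A (ENSG00000124762.13) is at chromosome 6, 36676460 to 36687339, plus strand. GADD45A (ENSG00000116717.13) is at chromosome 1, 67685061 to 67688338, plus strand. MDM2 (ENSG00000135679.25) is at chromosome 12, 68808176 to 68850686, plus strand, and PPM1D (ENSG00000170836.11) at chromosome 17, 60600183 to 60666280, plus strand. ZMAT3 (ENSG00000172667.11) is at chromosome 3, 179017223 to 179072279, minus strand, and SESN1 (ENSG00000080546.13) at chromosome 6, 108986437 to 109094819, minus strand. TNFRSF10B (ENSG00000120889.13) and TNFRSF10D (ENSG00000173530.6) are on the minus strand of chromosome 8, at 23020133 to 23069179 and 23135588 to 23164030. Exons of CDKN1A overlap DINOL, those of MDM2 overlap CPM, those of SESN1 overlap AL390208.1 and those of TNFRSF10B overlap RHOBTB2, each on the opposite strand, and MDM2 also overlaps the pseudogene AC025423.2 on its own strand. The labels do not give the strand setting of the counting, so reads of these pairs may be mixed.

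Libraries of the knockdown experiment held 37694945 to 42303951 gene counts, those of the 9 h experiment 22510323 to 34677704 and those with or without emetine 21781514 to 28053353. All 7 markers listed for the HEK293 line (VIM, NEFM, NEFL, INA, NES, KRT8 and KRT18) reached 1 CPM, with a sum of 934 to 1502 CPM. Of 6 fibroblast markers only COL1A1 and COL3A1 did, with a sum of 17.3 to 30.6 CPM for the list, and of 6 blood and 6 hepatocyte markers none did. YTHDF2 checked the siRNA: it stood at 46.1, 44.5 and 43.8 CPM with siRNA and DMSO, against 186, 189 and 181 CPM with DMSO alone, and at 79.4, 77.6 and 83.7 CPM with siRNA and STM2457, against 609, 646 and 693 CPM with STM2457 alone. STM2457 thus came with more YTHDF2 mRNA in either case. METTL3, the target of STM2457 (overlapping TOX4), had fitted log2 changes of 0.03 to 0.22 in the 5 STM2457 comparisons. Levels are in CPM, counts scaled to library size with TMM factors over all 32 libraries. The 3 experiments are separate sets of libraries, so levels across them mix treatment with experiment. The libraries are bulk RNA, in which fewer cells carrying an mRNA and less mRNA per cell cannot be told apart.

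**Figure D1:**
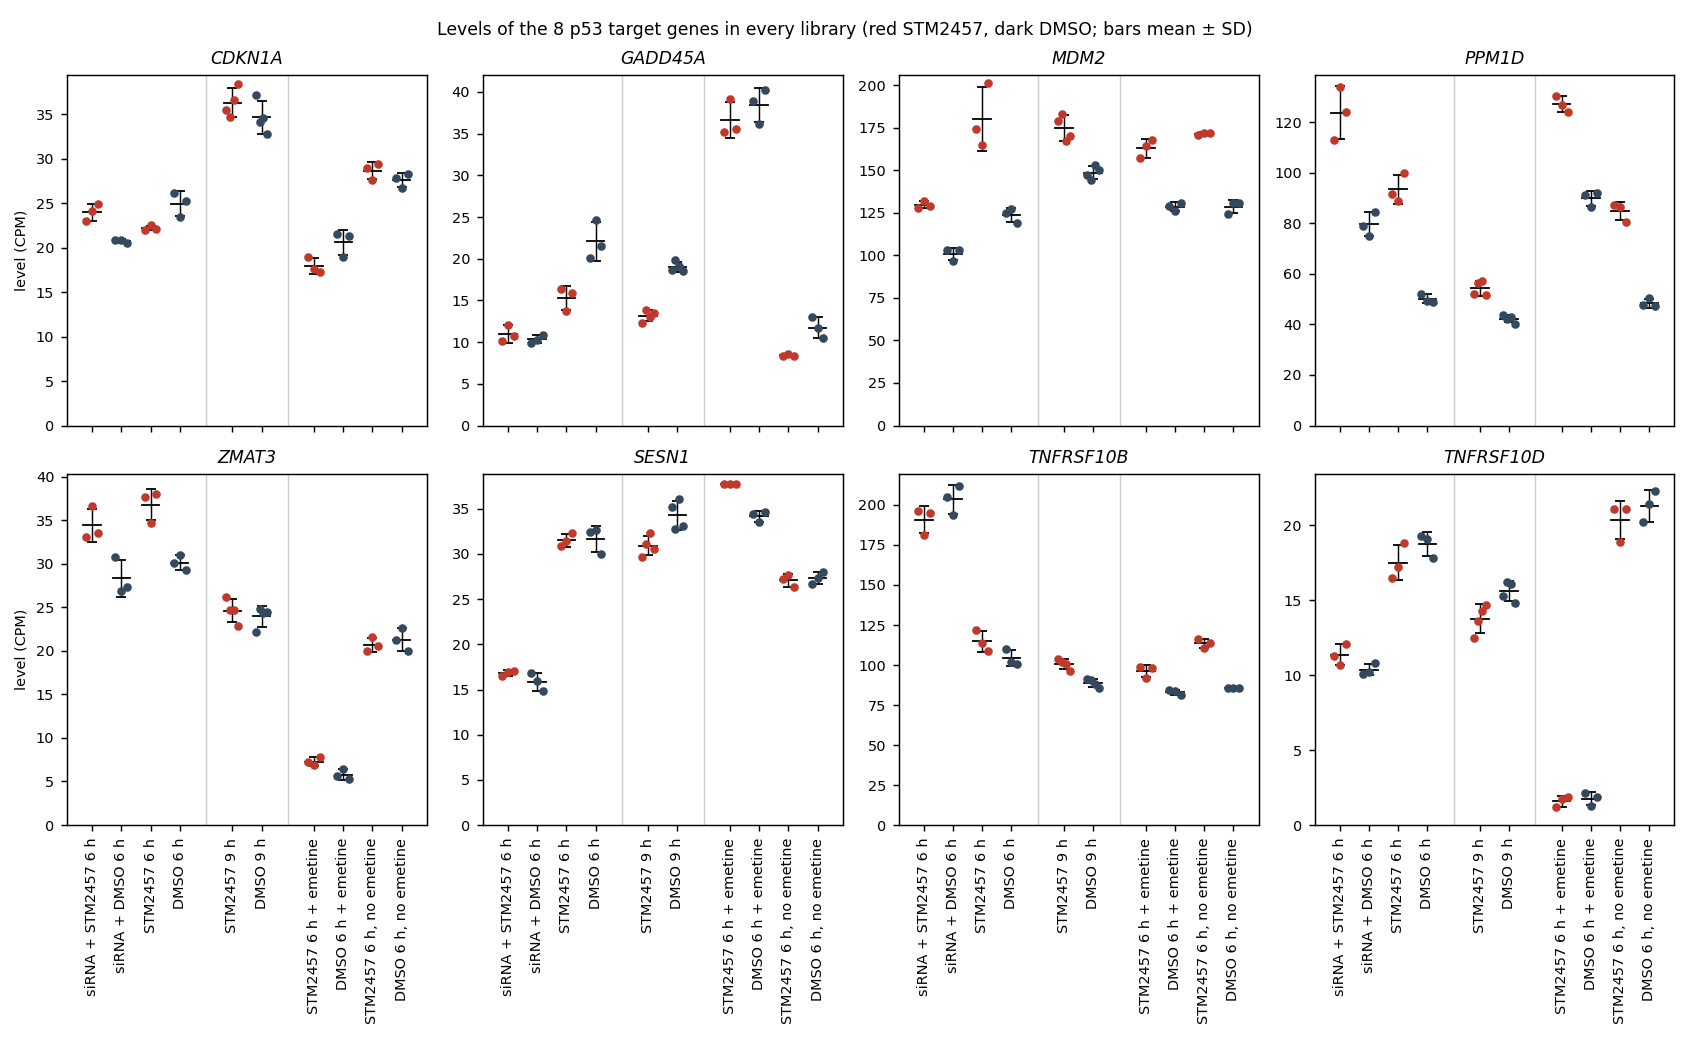
CPM of each of the 8 genes in every library (points, red for STM2457 and dark for DMSO) with mean ± SD, in the knockdown, 9 h and emetine experiments, set apart by grey lines. MDM2 and PPM1D are higher in each red group than in the dark group to its right, and TNFRSF10D lies between 1.18 and 2.13 CPM in all 6 emetine libraries.

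The 8 genes did not move as 1 block. A gene is called here when its edgeR adjusted p, taken over all genes tested, is under 0.05. With STM2457 for 6 h without siRNA, 3 members rose and 2 fell, where 45% of 16662 genes were called, 22.9% higher and 22.1% lower. On YTHDF2 siRNA the inhibitor raised 4 and lowered 0, where 30.9% of genes were called, 15.5% higher and 15.4% lower. At 9 h it raised 3 and lowered 3, where 64.7% of 15834 genes were called, 32.2% higher and 32.5% lower. In the emetine experiment it raised 3 and lowered 1 without emetine, where 47.8% of 15817 genes were called, 26% higher and 21.9% lower. With emetine it raised 5 and lowered 1, where 37.8% were called, 21.6% higher and 16.2% lower. YTHDF2 siRNA raised 2 members and lowered 5, where 62.4% of genes were called, 33.1% higher and 29.3% lower. Emetine raised 3 and lowered 3, where 62.2% were called, 33.9% higher and 28.3% lower. Being called is thus common in these fits and says little of a member by itself. The STM2457 and siRNA comparisons share DMSO libraries, as do the STM2457 and emetine comparisons. The median log2 change of the 8 was 0.05, 0.16, 0.06, 0.04 and 0.17 in these STM2457 comparisons, −0.27 with siRNA and 0.04 with emetine, beside medians of −0.02 to 0.04 over all genes tested.

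**Figure D2:**
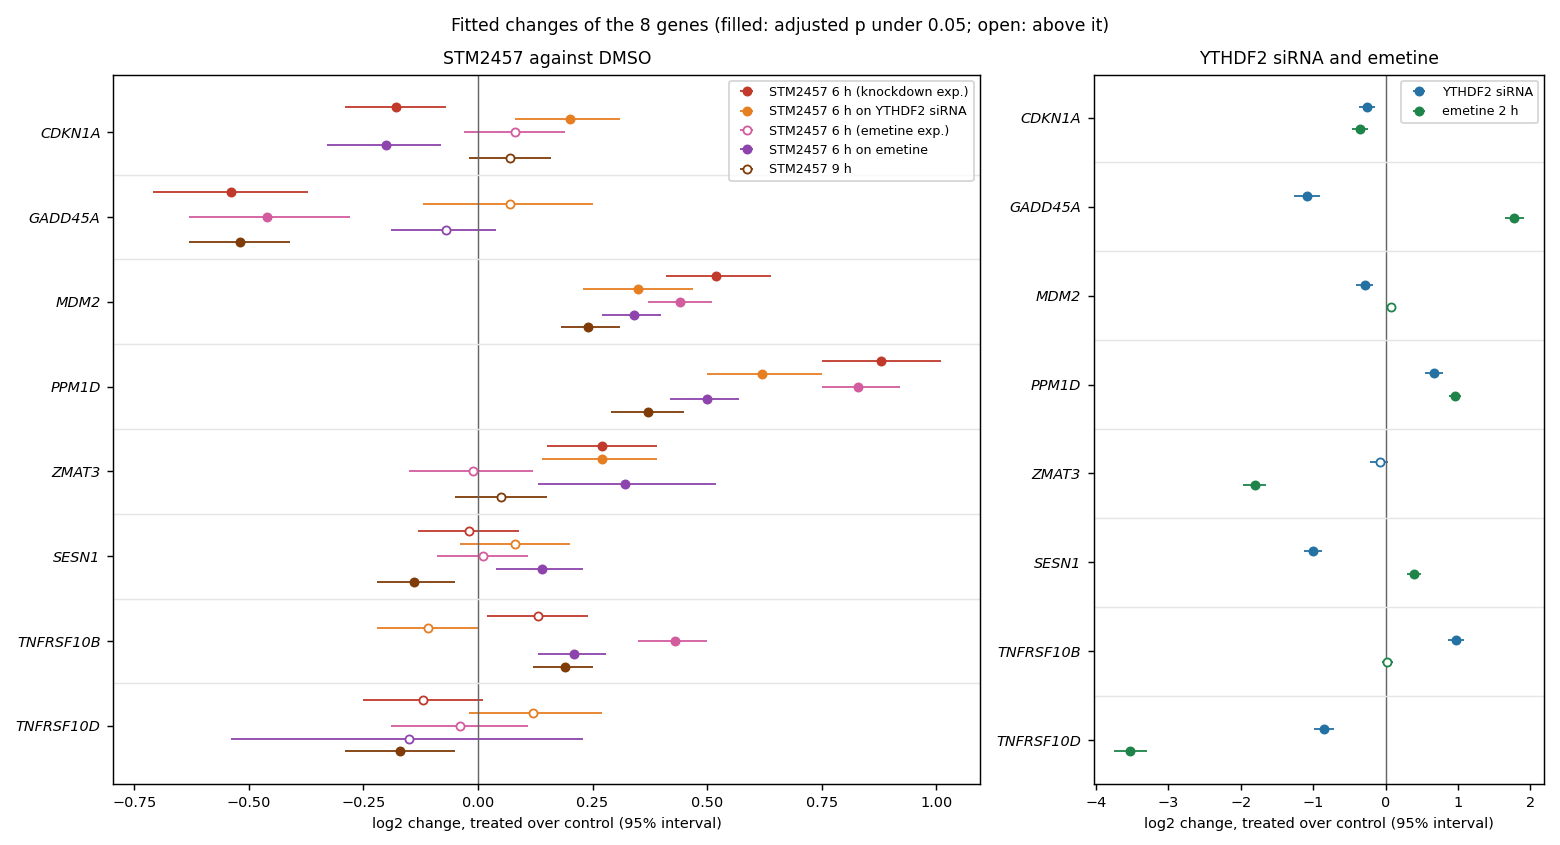
Fitted log2 change (treated over control) of each gene with its 95% interval, STM2457 at left in 5 settings, YTHDF2 siRNA and emetine at right; filled points have an adjusted p under 0.05. PPM1D and MDM2 lie right of 0 in all 5 STM2457 settings, with 0.37 to 0.88 and 0.24 to 0.52, while emetine spans −3.53 for TNFRSF10D to 1.78 for GADD45A.

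PPM1D and MDM2, which inhibit p53, were the members called higher with STM2457 in all 5 settings. The share of all genes called higher in all 5 was not counted. In single comparisons that share was 15.5% to 32.2%, so whether the pair is unusual is not known. PPM1D stood at 91.6, 88.9 and 99.9 CPM with STM2457 for 6 h, against 52.2, 49.4 and 49 CPM with DMSO. Every treated library was above every control. Its log2 change was 0.88 (SE 0.06, adjusted p = 2.53e-09), a 1.84-fold rise. The emetine experiment, without emetine, gave 87.1, 86.6 and 80.6 CPM with STM2457, against 47.6, 50.3 and 47.2 CPM with DMSO. That is a log2 change of 0.83 (SE 0.04, adjusted p = 1.36e-17), which did not differ from the other experiment's beyond error (difference −0.09, 95% interval −0.23 to 0.06). At 9 h PPM1D was 52.1, 56.3, 57.3 and 51.5 CPM with STM2457, against 43.7, 42.2, 43 and 40.3 CPM with DMSO, a log2 change of 0.37 (SE 0.04, adjusted p = 1.25e-08). The groups did not overlap, and the rise was smaller than at 6 h by 0.54 (SE 0.07, adjusted p = 1.16e-06). Time and experiment cannot be told apart there, and scaling to ribosomal protein genes took the difference to −0.07 (adjusted p = 0.532).

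PPM1D also rose with siRNA and with emetine, and STM2457 added to both. With YTHDF2 siRNA it stood at 79.1, 75.1 and 84.6 CPM, against 52.2, 49.4 and 49 CPM without, a log2 change of 0.67 (SE 0.06, adjusted p = 4.88e-08). Adding STM2457 to the siRNA gave 113, 134 and 124 CPM, a log2 change of 0.62 over siRNA alone (SE 0.06, adjusted p = 3.35e-07). Emetine gave 91.3, 86.3 and 91.9 CPM, against 47.6, 50.3 and 47.2 CPM without, a log2 change of 0.96 (SE 0.04, adjusted p = 1.5e-19). The libraries with both drugs had 130.5, 127 and 124 CPM, a log2 change of 0.50 over emetine alone (SE 0.04, adjusted p = 1.15e-12). The STM2457 rise was smaller with emetine than without by 0.34 (SE 0.06, adjusted p = 4.84e-05). With siRNA it was smaller by 0.25 (SE 0.09), which missed the threshold (adjusted p = 0.0947).

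MDM2 rose less. It had 174, 165 and 201 CPM with STM2457 for 6 h, against 125, 127 and 119 CPM with DMSO, a log2 change of 0.52 (SE 0.06, adjusted p = 8.81e-07). The third treated library was the highest of all 32. In the emetine experiment the values were 170.4, 172 and 172 CPM with STM2457, against 124, 131 and 131 CPM with DMSO, a log2 change of 0.44 (SE 0.03, adjusted p = 8e-13). At 9 h they were 179, 183, 167 and 170.1 CPM with STM2457, against 147, 144, 153 and 150.1 CPM with DMSO, a log2 change of 0.24 (SE 0.03, adjusted p = 5.31e-07). In none of these did the groups overlap. The 9 h rise was smaller than the 6 h rise by 0.32 (SE 0.07, adjusted p = 0.000782), but with ribosomal protein scaling the difference turned to 0.17 (adjusted p = 0.0754).

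The 2 inhibitors parted under siRNA and emetine. MDM2 fell with YTHDF2 siRNA, to 103, 96.7 and 103 CPM, against 125, 127 and 119 CPM without it, a log2 change of −0.29 (SE 0.06, adjusted p = 0.000358) that lost its call with spike-in scaling (−0.27, adjusted p = 0.309). STM2457 on top of the siRNA gave 128, 132 and 129 CPM, a log2 change of 0.35 over siRNA alone (SE 0.06, adjusted p = 0.000167). Emetine left MDM2 at 129, 126 and 131 CPM, against 124, 131 and 131 CPM without, groups that overlap (log2 change 0.07, 95% interval 0.00 to 0.14, adjusted p = 0.0861), while the other scalings gave called rises of 0.51 and 0.56. With both drugs it stood at 157, 164 and 168 CPM, a log2 change of 0.34 over emetine alone (SE 0.03, adjusted p = 7.53e-10).

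Scaling matters for the size of these changes. Scaling to 77 ribosomal protein genes or to the spike-in RNAs moved the median change of all genes with STM2457 by −0.27 and −0.37 in the knockdown experiment without siRNA and by −0.19 and −0.31 on siRNA. It moved it by −0.17 and −0.13 in the emetine experiment without emetine, by −0.11 and −0.08 with it, and by 0.17 at 9 h, where there were no spike-ins. PPM1D remained positive throughout, between 0.33 and 0.70, and its call was lost once, on siRNA with spike-in scaling (adjusted p = 0.215). MDM2 remained positive as well, between 0.04 and 0.42. Its calls in the knockdown experiment were lost with spike-in scaling, at 0.14 without siRNA (adjusted p = 0.556) and 0.04 on siRNA (adjusted p = 0.876), and on siRNA also with ribosomal protein scaling, at 0.16 (adjusted p = 0.0701).

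GADD45A, a stress-induced protein that binds PCNA and cyclin-dependent kinase complexes, fell with STM2457 in 3 of 5 settings. It had 16.4, 13.7 and 15.9 CPM with STM2457 for 6 h, against 20.1, 24.6 and 21.5 CPM with DMSO, a log2 change of −0.54 (SE 0.09, adjusted p = 4.43e-05). The emetine experiment gave 8.36, 8.59 and 8.31 CPM with STM2457, against 13, 11.7 and 10.5 CPM with DMSO, a log2 change of −0.46 (SE 0.09, adjusted p = 5.07e-05). At 9 h it was 12.3, 13.8, 13 and 13.5 CPM with STM2457, against 18.7, 19.8, 19.1 and 18.5 CPM with DMSO, a log2 change of −0.52 (SE 0.05, adjusted p = 9.29e-09). Groups were apart in all 3, and both other scalings kept the fall where they could be run.

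GADD45A moved in opposite directions with siRNA and emetine, and in neither background did STM2457 change it past the threshold. YTHDF2 siRNA lowered it to 9.95, 10.3 and 10.9 CPM, against 20.1, 24.6 and 21.5 CPM without, a log2 change of −1.09 (SE 0.09, adjusted p = 5.07e-09). Adding STM2457 gave 10.1, 12.1 and 10.7 CPM, which overlap siRNA alone (log2 change 0.07, adjusted p = 0.635). Emetine raised it to 38.9, 36.2 and 40.2 CPM, against 13, 11.7 and 10.5 CPM without, a log2 change of 1.78 (SE 0.07, adjusted p = 2.94e-21). With both drugs it was 35.2, 39.1 and 35.6 CPM, overlapping emetine alone (log2 change −0.07, adjusted p = 0.338), which became a called −0.18 with ribosomal protein scaling (adjusted p = 0.0354). The STM2457 effect differed by 0.61 with siRNA from without (SE 0.13, adjusted p = 0.0044) and by 0.38 with emetine from without (SE 0.11, adjusted p = 0.00881). Both differences kept their size under the other scalings, at 0.68 and 0.68 for siRNA and 0.45 and 0.43 for emetine, though only the emetine one with ribosomal protein scaling stayed called.

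CDKN1A, which encodes the kinase inhibitor p21, showed small changes of mixed sign. With STM2457 for 6 h it had 22, 22.5 and 22.1 CPM, against 26.2, 23.4 and 25.2 CPM with DMSO, a log2 change of −0.18 (SE 0.06, adjusted p = 0.0152). Without DMSO library 1 the adjusted p became 0.0539. On YTHDF2 siRNA the values were 23, 24.1 and 24.9 CPM with STM2457, against 20.9, 20.9 and 20.5 CPM with DMSO, a log2 change of 0.20 (SE 0.06, adjusted p = 0.0149). That call ended without siRNA-and-STM2457 library 3 (adjusted p = 0.0787) or siRNA-and-DMSO library 3 (adjusted p = 0.0546), with no filter on low counts (0.0513), and with both other scalings, the spike-ins giving −0.11. The difference between the 2 STM2457 effects was 0.38 (SE 0.08, adjusted p = 0.00577), a call lost with both other scalings (0.45 and 0.44, adjusted p = 0.214 and 1). The siRNA alone lowered CDKN1A with a log2 change of −0.26 (SE 0.06, adjusted p = 0.000771), which lost its call with spike-in scaling (−0.24, adjusted p = 0.402).

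The same 6 h treatment in the emetine experiment did not repeat the fall. CDKN1A there had 29, 27.6 and 29.4 CPM with STM2457, against 27.8, 26.7 and 28.3 CPM with DMSO (log2 change 0.08, adjusted p = 0.271), although the difference between the experiments missed the threshold (0.22, adjusted p = 0.174). At 9 h it had 35.5, 34.7, 36.6 and 38.4 CPM with STM2457, against 37.2, 34.1, 34.6 and 32.8 CPM with DMSO (log2 change 0.07, adjusted p = 0.169), a change called with ribosomal protein scaling (0.25, adjusted p = 0.000102). Emetine gave 21.5, 19 and 21.3 CPM, against 27.8, 26.7 and 28.3 CPM without, a log2 change of −0.35 (SE 0.06, adjusted p = 3.71e-06), which turned to 0.09 and 0.13 with ribosomal protein and spike-in scaling. Those scalings moved the median of all genes with emetine by 0.44 and 0.49. On emetine, STM2457 lowered CDKN1A to 18.9, 17.6 and 17.3 CPM, a log2 change of −0.20 over emetine alone (SE 0.06, adjusted p = 0.0114). This call ended without emetine-and-DMSO library 1 (adjusted p = 0.0654) or 3 (0.0542), or emetine-and-STM2457 library 3 (0.0554).

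ZMAT3, a zinc finger RNA-binding protein that acts on splicing and mRNA stability, rose with STM2457 in the knockdown experiment, with and without siRNA, and on emetine. It had 37.7, 34.7 and 38 CPM with STM2457 for 6 h, against 30.1, 31 and 29.3 CPM with DMSO, a log2 change of 0.27 (SE 0.06, adjusted p = 0.00161). With siRNA it had 33.1, 36.6 and 33.5 CPM on STM2457, against 30.8, 26.9 and 27.3 CPM on DMSO, a log2 change of 0.27 (SE 0.06, adjusted p = 0.00288). Both rises went to 0.01 and 0.08 with ribosomal protein scaling and turned to −0.10 and −0.04 with spike-in scaling. No rise was called in the emetine experiment without emetine (20.0, 21.6 and 20.5 CPM with STM2457, against 21.2, 22.6 and 20.0 CPM with DMSO, log2 change −0.01, adjusted p = 0.885). Nor was one called at 9 h, where the log2 change was 0.05 (adjusted p = 0.4). With ribosomal protein scaling these became a called fall of −0.19 (adjusted p = 0.0448) and a called rise of 0.22 (adjusted p = 0.00307).

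Emetine brought ZMAT3 to 5.67, 6.46 and 5.23 CPM, against 21.2, 22.6 and 20.0 CPM without, a log2 change of −1.81 (SE 0.08, adjusted p = 3.99e-19) or a 3.51-fold fall. It fell with the other scalings too, by 1.37 and 1.33 on the log2 scale. STM2457 on emetine gave 7.19, 6.86 and 7.8 CPM, a log2 change of 0.32 over emetine alone (SE 0.10, adjusted p = 0.00914). That call ended without emetine-and-DMSO library 3 (adjusted p = 0.0718) or emetine-and-STM2457 library 3 (0.0537), and with both other scalings, at 0.22 and 0.25. With YTHDF2 siRNA, ZMAT3 overlapped the controls, with a log2 change of −0.08 (adjusted p = 0.253), which became −0.17 without siRNA-and-DMSO library 1 (adjusted p = 0.0337).

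SESN1, a stress-induced inhibitor of mTORC1 signalling, changed little with STM2457 and more than most members with siRNA. YTHDF2 siRNA lowered it to 16.8, 15.9 and 14.8 CPM, against 32.4, 32.6 and 30.0 CPM without, a 2-fold fall (95% interval of the log2 change −1.12 to −0.88, adjusted p = 7.4e-11). No siRNA library came near a control. STM2457 on siRNA gave 16.5, 16.9 and 17.1 CPM, overlapping siRNA alone (log2 change 0.08, adjusted p = 0.365). At 6 h without siRNA it had 30.9, 31.4 and 32.3 CPM with STM2457, inside the range of the DMSO libraries (log2 change −0.02, adjusted p = 0.771), though ribosomal protein scaling gave a called fall of −0.29 (adjusted p = 0.0217).

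At 9 h SESN1 was 29.7, 31.1, 32.3 and 30.6 CPM with STM2457, against 35.2, 32.8, 36.1 and 33.1 CPM with DMSO, a log2 change of −0.14 (SE 0.04, adjusted p = 0.00828) that turned to 0.04 with ribosomal protein scaling. Emetine raised SESN1 to 34.4, 33.5 and 34.6 CPM, against 26.7, 27.3 and 28 CPM without, a log2 change of 0.39 (SE 0.05, adjusted p = 2.19e-08). With both drugs each library had 37.7 CPM, a log2 change of 0.14 over emetine alone (SE 0.05, adjusted p = 0.0211). Leaving out emetine-and-DMSO library 2 (adjusted p = 0.0777) or emetine-and-STM2457 library 1 (0.052), DESeq2 (0.0542), no filter on low counts (0.0993) and both other scalings each ended that call. In the emetine experiment without emetine the log2 change with STM2457 was 0.01 (adjusted p = 0.896), and −0.16 with ribosomal protein scaling (adjusted p = 0.0184).

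The TRAIL receptors differed from each other. TNFRSF10B (DR5) carries a death domain and signals for apoptosis, while TNFRSF10D (DcR2) has a truncated one and acts as a decoy. YTHDF2 siRNA raised TNFRSF10B to 205, 194 and 212 CPM, against 109.8, 102 and 100.5 CPM without, a log2 change of 0.97 (SE 0.06, adjusted p = 6.3e-11). The same siRNA lowered TNFRSF10D to 10.1, 10.2 and 10.8 CPM, against 19.3, 19.1 and 17.8 CPM without, a log2 change of −0.85 (SE 0.07, adjusted p = 6.58e-09). Neither receptor's groups overlapped. STM2457 on siRNA gave 196, 181 and 195 CPM of TNFRSF10B (log2 change −0.11, adjusted p = 0.163) and 11.3, 10.7 and 12.1 CPM of TNFRSF10D (log2 change 0.12, adjusted p = 0.234), each overlapping siRNA alone. With ribosomal protein scaling the TNFRSF10B change on siRNA was called, at −0.30 (adjusted p = 0.0407).

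TNFRSF10D fell further with emetine than any other member. It had 2.13, 1.28 and 1.86 CPM with emetine, against 20.2, 21.4 and 22.3 CPM without, from 57, 35 and 53 reads against 542, 557 and 531 reads. The log2 change was −3.53 (SE 0.12, adjusted p = 7.19e-23), an 11.5-fold fall, and −3.09 and −3.04 with the other scalings. With both drugs it had 1.18, 1.75 and 1.85 CPM, overlapping emetine alone (log2 change −0.15, 95% interval −0.54 to 0.23, adjusted p = 0.592). TNFRSF10B stood at 84.1, 83.7 and 81.1 CPM with emetine, against 85.8, 85.6 and 85.9 CPM without (log2 change 0.02, 95% interval −0.05 to 0.10, adjusted p = 0.671). The CPM values lie apart because they use TMM factors over all libraries, while the fit uses those of its own experiment. With the other scalings it rose by 0.46 and 0.51, where the median of all genes moved by 0.44 and 0.49.

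STM2457 alone raised TNFRSF10B in the emetine experiment and at 9 h. It had 116, 110.4 and 114 CPM with STM2457 for 6 h, against 85.8, 85.6 and 85.9 CPM with DMSO, a log2 change of 0.43 (SE 0.04, adjusted p = 1.38e-11). On emetine it had 98.8, 91.6 and 98.3 CPM with STM2457, a log2 change of 0.21 over emetine alone (SE 0.04, adjusted p = 3.49e-05), whose call ended with both other scalings (0.10 and 0.13). At 9 h it had 104, 102, 100.4 and 96.4 CPM with STM2457, against 91.2, 90.8, 88.1 and 85.6 CPM with DMSO, a log2 change of 0.19 (SE 0.03, adjusted p = 2.07e-05).

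In the knockdown experiment TNFRSF10B had 122, 114 and 109 CPM with STM2457, against 109.8, 102 and 100.5 CPM with DMSO (log2 change 0.13, adjusted p = 0.0779), and it was called without STM2457 library 3 (0.15, adjusted p = 0.0272). The other scalings turned this to −0.13 and −0.23. The STM2457 effect in the emetine experiment exceeded that in the knockdown experiment by 0.26 (SE 0.07, adjusted p = 0.0495), the 1 member called where 0.843% of genes were, 0.239% higher and 0.604% lower. RLE normalization ended that call (adjusted p = 0.0505), ribosomal protein scaling did too (0.365), and leaving out any of 17 of the 20 libraries ended it as well (adjusted p up to 0.145).

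TNFRSF10D was called lower with STM2457 in 1 of the 5 settings, at 9 h, where it had 12.5, 13.6, 14.3 and 14.7 CPM, against 15.3, 16.2, 16.1 and 14.8 CPM with DMSO. The log2 change was −0.17 (SE 0.06, adjusted p = 0.0146), lost without STM2457 library 1 (adjusted p = 0.073) and at 0.0014 with ribosomal protein scaling. At 6 h the values were 16.5, 17.2 and 18.8 CPM with STM2457, against 19.3, 19.1 and 17.8 CPM with DMSO (log2 change −0.12, adjusted p = 0.169), called without STM2457 library 3 (−0.18, adjusted p = 0.0342) and with ribosomal protein scaling (−0.39, adjusted p = 0.00282). In the emetine experiment, without emetine, the log2 change was −0.04 (adjusted p = 0.725), and −0.21 with ribosomal protein scaling (adjusted p = 0.0335).

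**Figure D3:**
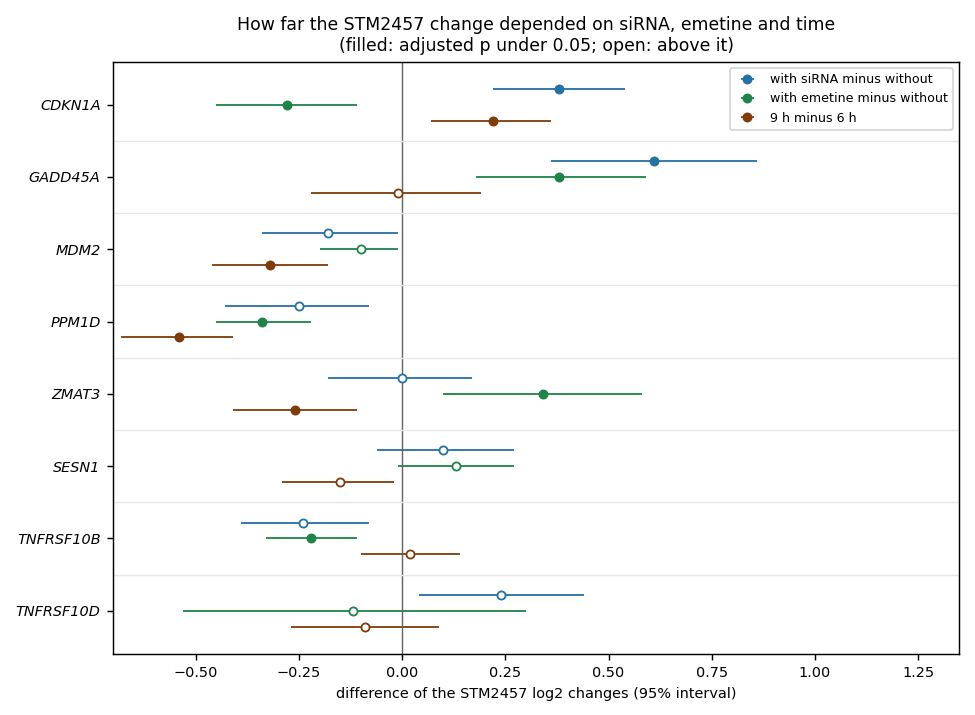
Difference between STM2457 log2 changes, with siRNA minus without, with emetine minus without, and at 9 h minus 6 h, for each gene with its 95% interval; filled points have an adjusted p under 0.05. GADD45A lies right of 0 for siRNA (0.61) and emetine (0.38), and PPM1D left of 0 for emetine (−0.34) and time (−0.54).

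Whether STM2457 acted differently on the members under siRNA, emetine or longer treatment was tested directly. With siRNA 2 of the 8 effects differed, those of CDKN1A and GADD45A, both higher, where 8.7% of all genes did, 1.78% higher and 6.93% lower. With emetine 2 were higher and 3 lower, where 17.8% of genes differed, 6.71% higher and 11.1% lower. CDKN1A differed by −0.28 (adjusted p = 0.0193), ZMAT3 by 0.34 (0.0474), TNFRSF10B by −0.22 (0.00311), and PPM1D and GADD45A as given above. Ribosomal protein scaling kept the calls of ZMAT3, PPM1D and GADD45A, and spike-in scaling kept none of the 5. Leaving out any of 6 libraries ended the call of CDKN1A (adjusted p up to 0.0698), and any of 8 that of ZMAT3 (up to 0.172). The ZMAT3 call also ended with DESeq2 (0.0578) and with no filter on low counts (0.105). At 9 h against 6 h 1 was higher and 3 lower, where 37.1% of 16720 genes differed, 13.8% higher and 23.3% lower. MDM2 and PPM1D were lower as given above, CDKN1A differed by 0.22 (adjusted p = 0.0202) and ZMAT3 by −0.26 (0.00947). The CDKN1A call ended without DMSO 6 h library 1 (adjusted p = 0.0761) and with no filter on low counts (0.0988). Ribosomal protein scaling turned the direction of this last comparison. It moved the median of all genes by 0.47, giving 10038 genes called higher and 95 lower, and 5 members were then called higher and 0 lower. These were CDKN1A (0.69, adjusted p = 2.5e-05), TNFRSF10B (0.49, 0.00108), GADD45A (0.46, 0.00619), TNFRSF10D (0.39, 0.00277) and SESN1 (0.32, 0.00803), while ZMAT3 stood at 0.22 and was not called (0.115). SESN1 and TNFRSF10D had no called difference in the 4 tests as fitted, but TNFRSF10D's siRNA difference was called without STM2457 library 3 (0.30, adjusted p = 0.0417).

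Per length, TNFRSF10B was the most abundant of the 8 in DMSO at 6 h, at 25.1 CPM per kilobase of transcript, and ZMAT3 the least, at 3.2. Between them came GADD45A at 14.8, CDKN1A at 11, PPM1D at 10.5, MDM2 at 9.82, SESN1 at 9.03 and TNFRSF10D at 5.29 CPM per kilobase. TNFRSF10B was highest and ZMAT3 lowest in the other DMSO groups without siRNA or emetine too. The length was that of 1 annotated transcript a gene, the one with the longest coding sequence, with 12633 bases for MDM2 and 9406 for ZMAT3. Which transcripts these cells express was not tested, so the order can depend on that choice.

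Over the 10 groups each gene had its own order of mean levels. PPM1D ran from 127 ± 3.26 CPM with STM2457 and emetine and 124 ± 10.7 CPM with STM2457 and siRNA, which overlap, down to 42.3 ± 1.46 CPM in DMSO at 9 h. MDM2 ran from 179.9 ± 18.7 CPM with STM2457 for 6 h to 101 ± 3.47 CPM with siRNA and DMSO, with its 4 highest groups all STM2457 groups. The 3 highest groups of MDM2 had ranges that overlap from each to the next. CDKN1A was highest in the 9 h experiment, at 36.3 ± 1.58 CPM with STM2457 and 34.7 ± 1.85 CPM with DMSO, which overlap, and lowest with STM2457 and emetine, at 17.9 ± 0.834 CPM. SESN1 was lowest in both siRNA groups, at 16.8 ± 0.286 CPM with STM2457 and 15.8 ± 1 CPM with DMSO, and TNFRSF10B was highest there, at 191 ± 8.68 and 204 ± 8.92 CPM. GADD45A was highest in both emetine groups, at 36.6 ± 2.15 CPM with STM2457 and 38.4 ± 2.03 CPM with DMSO, groups that overlap, where ZMAT3 and TNFRSF10D had their lowest levels. All errors are SD, with n = 4 at 9 h and n = 3 elsewhere.

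Some of the 8 followed each other across libraries and others ran opposite. After each experiment's mean was taken out of log2 CPM, TNFRSF10D followed ZMAT3 (Pearson r = 0.94) and CDKN1A (0.89) over the 32 libraries, and ZMAT3 ran opposite to GADD45A (−0.85) and SESN1 to TNFRSF10B (−0.88). PPM1D and MDM2 gave only 0.42. With emetine TNFRSF10D, ZMAT3 and CDKN1A changed by −3.53, −1.81 and −0.35 on the log2 scale, and GADD45A by 1.78. With YTHDF2 siRNA the first 3 changed by −0.85, −0.08 and −0.26, and with STM2457 for 6 h without siRNA by −0.12, 0.27 and −0.18. How far these correlations rest on the emetine libraries was not tested. Likeness was taken over 11389 genes, and only protein-coding genes with a symbol are named as most like a member. These were PPM1A (0.98) and OGFOD1 (0.97) for MDM2, and ZFX (0.99) and KLF11 (0.98) for PPM1D. For SESN1 they were PAX6 (0.99) and PRMT7 (0.98), and for TNFRSF10D HSPA8 and ZC3HAV1 (0.98 each). For ZMAT3 they were SBNO1 (0.98) and SLC38A2 (0.97), for GADD45A UBR1 and SLC25A38 (0.97 each), for TNFRSF10B ZDHHC18 (0.97) and TMEM201 (0.96), and for CDKN1A SFT2D2 (0.90) and TNFRSF10D. These points share treatments and scaling, so they describe likeness of pattern over these libraries only.

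The wider list of p53 targets also split. Of 36 other targets 33 passed the filter on low counts (not TNFRSF10A, TNFRSF10C and TRIM22). With STM2457 for 6 h without siRNA 17 rose and 4 fell, where 22.9% of all genes were called higher and 22.1% lower, and their median log2 change was 0.18. On siRNA 11 rose and 5 fell (median 0.12), where 15.5% of all genes were higher and 15.4% lower. At 9 h 17 rose and 9 fell (0.18), where 32.2% were higher and 32.5% lower. STM2457 without emetine raised 16 and lowered 5 (0.25) in the emetine experiment, where 26% were higher and 21.9% lower, and raised 12 and lowered 4 on emetine (0.10), where 21.6% were higher and 16.2% lower. YTHDF2 siRNA raised 17 and lowered 8 (0.17), where 33.1% were higher and 29.3% lower, and emetine raised 14 and lowered 8 (0.12), where 33.9% were higher and 28.3% lower.

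The direction of this list depended on scaling. With STM2457 for 6 h without siRNA, 5 of the 33 were called higher and 6 lower with ribosomal protein scaling (median −0.08), and 1 higher and 4 lower with spike-ins (−0.19). Of all 16662 genes, 1237 were then higher and 7375 lower with the first scaling, and 398 and 5023 with the second. On siRNA the counts among the 33 were 4 higher and 7 lower (−0.07), and 2 higher and 3 lower (−0.19). Over all 16662 genes they were 702 higher and 4231 lower, and 138 and 2381. For STM2457 in the emetine experiment, 12 of the 33 were higher and 10 lower (0.07), and 11 higher and 6 lower (0.11). Of all 15817 genes, 2194 were higher and 6698 lower, and 2092 and 4679. On emetine STM2457 gave 8 higher and 7 lower (−0.01), and 8 higher and 4 lower (0.01). Over all genes the counts were 1651 and 4376, and 1351 and 2581. At 9 h ribosomal protein scaling gave 23 higher and 3 lower (0.36), where 7533 of 15834 genes were higher and 2404 lower. With emetine itself either scaling gave 27 higher and 0 lower. Of all 15817 genes, 11480 and 11558 were then higher and 405 and 227 lower. With YTHDF2 siRNA the 2 scalings gave 16 higher and 7 lower, and 8 higher and 4 lower. There 4580 of 16662 genes were higher and 4009 lower, and 2653 and 2229. The median of the 8 members turned as well, to −0.21 and −0.31 with STM2457 for 6 h (0.05 as fitted), to −0.03 and −0.14 on siRNA (0.16 as fitted) and to −0.13 and −0.09 in the emetine experiment (0.04 as fitted).

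EPHA2, a receptor tyrosine kinase, rose in all 5 STM2457 comparisons as fitted, the 6 h call being lost with spike-in scaling (0.37, adjusted p = 0.119). It stood at 56.2 ± 3.54 CPM with STM2457 for 6 h, against 33.2 ± 0.668 CPM with DMSO (SD, n = 3 each; log2 change 0.74, adjusted p = 1.18e-08), and at 76 ± 4.6 CPM with STM2457 for 9 h, against 28.5 ± 1.11 CPM with DMSO (SD, n = 4 each; log2 change 1.42, adjusted p = 1.02e-18). SERTAD1, a transcriptional co-regulator, rose by 1.44 on the log2 scale in the knockdown experiment without siRNA (adjusted p = 2.16e-09). It stood there at 34.4 ± 7.31 CPM with STM2457, a wide spread, against 12.5 ± 0.229 CPM with DMSO (SD, n = 3 each). In the emetine experiment it rose to 34.4 ± 1.46 CPM, against 14.7 ± 0.339 CPM with DMSO (SD, n = 3 each, adjusted p = 1.6e-18). BTG2, an antiproliferative partner of the CCR4-NOT deadenylase, rose by 1.06 at 9 h (adjusted p = 3.28e-16), and PANK1, a coenzyme A synthesis kinase, by 0.73 at 6 h and 9 h, the 6 h call being lost with spike-ins (0.37, adjusted p = 0.128). DCP1B, a decapping factor, rose by 0.54 at 6 h with and without siRNA, calls lost with spike-ins (0.24 and 0.17, adjusted p = 0.387 and 0.501), and XPC, which finds damaged DNA, by 0.56 at 9 h. On emetine SESN2, a paralogue of SESN1, rose with STM2457 to 148 ± 4.68 CPM, against 91.2 ± 2.27 CPM (SD, n = 3 each; log2 change 0.69, adjusted p = 3.08e-16).

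YTHDF2 siRNA raised BAX, a pore-forming protein of mitochondrial apoptosis, by 0.67, and lowered SUSD6 by 0.98 on the log2 scale. Emetine raised AEN, an apoptosis nuclease, to 207 ± 9.37 CPM, against 105 ± 3.88 CPM without (SD, n = 3 each; log2 change 1.04, adjusted p = 1.12e-21). It also raised PMAIP1 (NOXA), which promotes apoptosis, by 0.67 and DDB2, a DNA damage sensor, by 0.90, and lowered CCNG1 (cyclin G1) by 0.31, which turned to called rises of 0.13 and 0.18 with the other scalings. Of 17 regulators of p53, 6 rose and 1 fell with STM2457 for 6 h (median log2 change 0.04), and 6 rose and 6 fell at 9 h (0.00). On siRNA 6 rose and 1 fell with STM2457 (0.09), and in the emetine experiment 8 rose and 2 fell both without emetine (0.06) and with it (0.09). YTHDF2 siRNA raised 6 and lowered 5 (0.04), and emetine raised 13 and lowered 3 (0.24). The shares of all genes given for the other targets apply here too, for example 32.2% higher and 32.5% lower at 9 h and 33.9% higher and 28.3% lower with emetine. The other scalings gave 4 higher and 6 lower, and 2 higher and 1 lower, with STM2457 for 6 h. Of all 16662 genes, 1237 were then higher and 7375 lower, and 398 and 5023. TOPORS, a ubiquitin and SUMO ligase for p53, rose by 1.01 and 0.99 with STM2457 in the knockdown and emetine experiments, and USP10, which removes ubiquitin from p53, by 0.84 and 0.75. On emetine STM2457 lowered ATR by 0.52 and raised CREBBP by 0.46, and siRNA lowered CREBBP by 1.14 and CHEK2, a DNA damage kinase, by 0.89 on the log2 scale. At 9 h STM2457 raised CREBBP by 0.70.

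**Figure D4:**
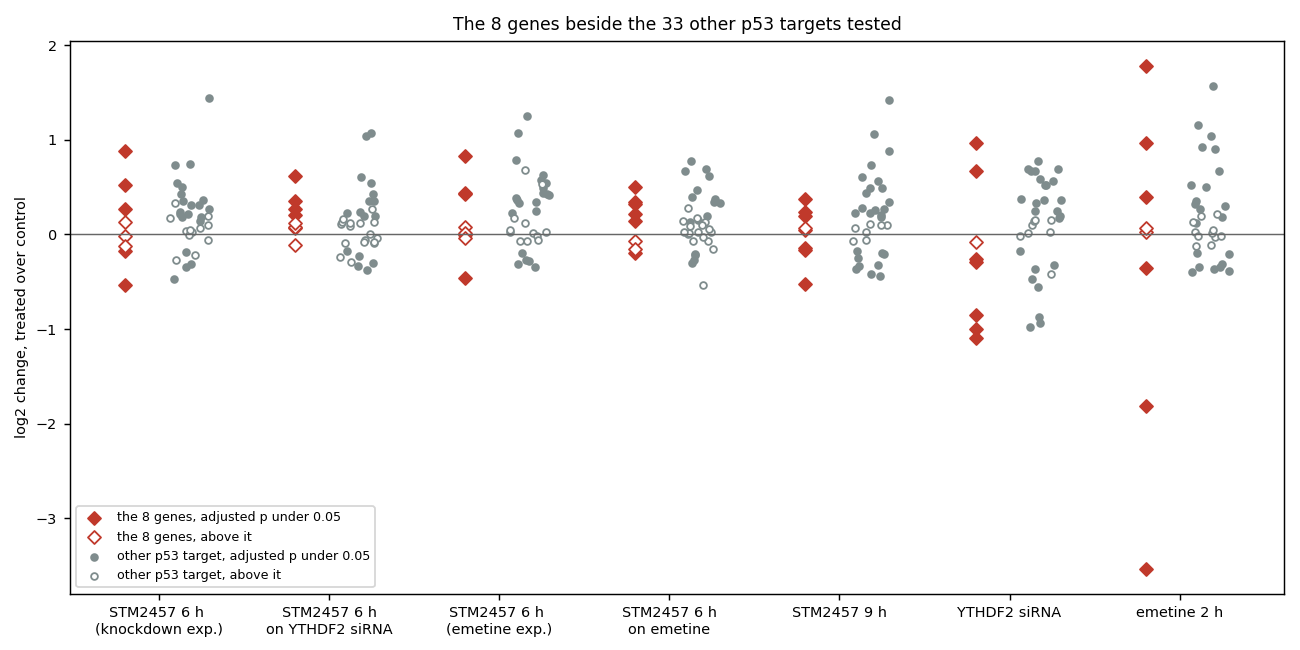
Fitted log2 changes of the 8 genes (red diamonds) and of the 33 other p53 targets tested (grey circles) in 7 comparisons; filled symbols have an adjusted p under 0.05. With emetine TNFRSF10D at −3.53 and ZMAT3 at −1.81 lie below every other target shown, and with STM2457 most filled grey circles lie above 0 as fitted, which ribosomal protein and spike-in scaling change in the knockdown experiment.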

How the data were processed

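Poly(A)-selected, strand-specific libraries were made from HEK293T RNA, per the labels' protocols. The authors deposited unnormalized counts of reads, 1 value for each Ensembl gene. The submitters' processing notes name STAR 2.7.3a, Subread 2.0.0, featureCounts, SAMtools 1.9, Trimmomatic, cutadapt 4.0 and 1.18 and FastQC 0.11.8, with no role or order, and the build GRCh38.p12. The annotation release is not given in the sources used here. ERCC spike-in counts, present in 24 libraries, were kept apart from the genes.

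The counts were tested with edgeR 4.0.16 in R 4.3.3 (TMM, filterByExpr, quasi-likelihood F test, Benjamini-Hochberg adjustment over all genes tested, threshold 0.05), with 1 fit for each of the 3 experiments and 1 over the 20 libraries without siRNA or emetine for the differences between experiments. In all 11 comparisons were made, 7 between groups and 4 between STM2457 effects. Printed CPM values use TMM over all 32 libraries while each fit uses its own, so ratios of printed levels can differ slightly from fitted changes. Alternatives were DESeq2 1.42.0, RLE normalization, no filter on low counts, scaling to 77 ribosomal protein genes or to spike-ins, the replicate number as a block, and leaving out each library.

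No label says that replicates came from separate cultures, so the p-values describe variation among these libraries alone, and that may be technical. Depth was 21781514 to 42303951 gene counts a library, and counting error was largest for TNFRSF10D with emetine, at 30 to 57 reads. Tested on simulated data, the 6 h comparison of the knockdown experiment recovered 68% of genes changed by 0.32 on the log2 scale, a size that many member changes do not reach, 90% of those changed 1.5-fold and 98% of those changed 2-fold, among 16368 genes, and the 9 h minus 6 h difference recovered 50% at 0.32, among 16307 genes. The simulation changed only 50 genes at each size, drawn from well-counted genes. In the data 45% of 16662 genes were called at 6 h, so these rates need not hold for the members. The members and the lists of other targets and regulators were chosen with earlier results of these data known. Named beside the 8 are YTHDF2, METTL3, and in each comparison up to 4 other targets and 2 regulators by smallest p. For each member the 2 protein-coding genes most like it are named too. Some items that this rule names are not reported here.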

Additional observations from a re-analysis of the deposited data

Results flagged for a closer look

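Among the 8 genes, 12 STM2457 effects differed between settings by a test of the difference itself (edgeR, adjusted p under 0.05). Over all genes the share that differed was 8.7% with siRNA, 17.8% with emetine, 37.1% between 9 h and 6 h and 0.843% between the experiments. Spike-in scaling ended all 7 of the siRNA and emetine calls given here. Ribosomal protein scaling ended both siRNA calls and the emetine calls of CDKN1A and TNFRSF10B. It also ended the calls of MDM2, ZMAT3 and PPM1D between 9 h and 6 h and that of TNFRSF10B between the experiments. With siRNA minus without, GADD45A differed by 0.61 and CDKN1A by 0.38 on the log2 scale. With emetine minus without, the differences were 0.38 for GADD45A, 0.34 for ZMAT3, −0.28 for CDKN1A, −0.22 for TNFRSF10B and −0.34 for PPM1D. Between 9 h and 6 h they were −0.26 for ZMAT3, 0.22 for CDKN1A, −0.32 for MDM2 and −0.54 for PPM1D, where time and experiment cannot be told apart. Between the emetine and knockdown experiments at 6 h TNFRSF10B differed by 0.26. No library of the 9 h groups, the only groups of 4, lay far enough from its fellows to be singled out for any of the genes followed. Groups of 3 were not tested this way. Libraries with STM2457 for 6 h in the knockdown experiment were the least alike, with a lowest correlation of log2 CPM of 0.9937, against at least 0.9969 elsewhere. Without library 3 of that group, 2196 genes instead of 1450 were called for the siRNA difference.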

How the results depend on the processing

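DESeq2, RLE normalization, no filter on low counts and the replicate block left at least 83 of the 88 log2 changes of the 8 genes with the same sign and call, while ribosomal protein scaling left 46 of 88 and spike-in scaling 36 of 64. The cause was not tested, beyond the shift of all genes that these scalings bring. With spike-ins that shift was 0.02 for YTHDF2 siRNA (4882 genes called instead of 10403) and 0.06 for the siRNA difference (0 instead of 1450). The members' median with siRNA went from −0.27 to −0.25. In the knockdown experiment spike-ins made up 0.309, 0.365 and 0.301% of counts with DMSO and 0.415, 0.328 and 0.463% with STM2457. On siRNA the shares were 0.294, 0.313 and 0.35%, and 0.472, 0.365 and 0.327%. Whether this spread cost calls was not tested. Spike-in scaling called 3 members with STM2457 for 6 h, 0 on siRNA, 3 with STM2457 on emetine, and 0 for either the siRNA or the emetine difference. Over all genes it called 5421 and 2519 of 16662 and 3932 of 15817, and 0 and 705 for the differences. Ribosomal protein scaling called 2 on siRNA, 7 in the emetine experiment without emetine, 0 for the siRNA difference, 3 for the emetine difference and 0 between the experiments, where DESeq2 called 2 and RLE normalization 0. Over all genes it called, in that order, 4933 of 16662, 8892 of 15817, 130 of 16662, 2257 of 15817 and 4 of 16720. Between the experiments DESeq2 called 403 genes and RLE normalization 106.

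Log2 changes with STM2457 turned round as follows. Without siRNA, ZMAT3 was −0.10 with spike-ins and TNFRSF10B −0.13 with ribosomal protein scaling and −0.23 with spike-ins. On siRNA, spike-ins gave CDKN1A −0.11 and ZMAT3 −0.04, and ribosomal protein and spike-in scaling gave SESN1 −0.11 and −0.23, GADD45A −0.12 and −0.23, and TNFRSF10D −0.07 and −0.18. At 9 h ribosomal protein scaling gave SESN1 0.04 and TNFRSF10D 0.0014. In the emetine experiment those scalings gave CDKN1A −0.09 and −0.05 and SESN1 −0.16 and −0.12, and DESeq2 and RLE gave SESN1 −0.00034 and −0.00031. For emetine over its DMSO control, without STM2457, CDKN1A turned from −0.35 to 0.09 and 0.13 with these scalings. The siRNA difference of ZMAT3 was 0.01 with DESeq2 and RLE, 0.07 with ribosomal protein scaling and 0.06 with spike-ins. With ribosomal protein scaling the 9 h difference was 0.17 for MDM2, 0.22 for ZMAT3, 0.32 for SESN1, 0.46 for GADD45A and 0.39 for TNFRSF10D, and the difference between experiments 0.02 for MDM2, 0.05 for PPM1D and 0.13 for SESN1, which was 0.01 with no filter.

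Leaving out 1 library at a time, members called ranged from 4 to 7 with STM2457 for 6 h, 3 to 4 on siRNA, 5 to 6 at 9 h, 4 to 4 in the emetine experiment, 4 to 6 with emetine, 7 to 8 with siRNA, 6 to 6 with emetine alone, 2 to 4 for the siRNA difference, 3 to 5 for the emetine difference, 3 to 4 for the 9 h difference and 0 to 2 between experiments. Changes near 0 crossed it: with STM2457, GADD45A on siRNA (−0.01 to 0.12), ZMAT3 (−0.08 to 0.003) and SESN1 (−0.04 to 0.01) in the emetine experiment, and TNFRSF10D with emetine (−0.33 to 0.03). TNFRSF10B with emetine alone ranged from −0.01 to 0.04. So did the differences for ZMAT3 with siRNA (−0.03 to 0.07), TNFRSF10D with emetine (−0.29 to 0.06), GADD45A (−0.10 to 0.05) and TNFRSF10B (−0.02 to 0.06) at 9 h, and SESN1 (−0.03 to 0.03), GADD45A (−0.04 to 0.12) and TNFRSF10D (−0.00029 to 0.09) between experiments.

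Same-numbered libraries deviated together (correlation over 0.1) in 6 of 18 pairs in the knockdown, 3 of 18 in the emetine and 0 of 4 in the 9 h experiment. In the knockdown experiment their correlations ran from −0.331 to 0.542, against −0.508 to 0.398 for other pairs. In the emetine experiment they ran from −0.0906 to 0.206, against −0.256 to 0.14. These ranges overlap, so whether the numbers pair samples is not settled. With the replicate block the siRNA difference of TNFRSF10B, −0.24, became called (adjusted p = 0.0471), no other member's call changed, and genes called between the experiments came to 57 instead of 141. Over all genes, spike-in scaling called 2519 instead of 5146 with STM2457 on siRNA, 4882 instead of 10403 with siRNA, 3932 instead of 5972 with STM2457 on emetine, 705 instead of 2810 for the emetine difference and 0 instead of 1450 for the siRNA difference. Ribosomal protein scaling called 130 for the siRNA difference, 10133 instead of 6202 for the 9 h difference and 4 between the experiments, where DESeq2 called 403 and no filter 288. Leaving out a library moved that last count between 15 and 810 and the siRNA difference between 879 and 2196. Scaling also tilted the calls: with STM2457 for 6 h, 3814 higher and 3677 lower became 1237 and 7375 with ribosomal protein scaling and 398 and 5023 with spike-ins. With emetine, 5360 higher and 4477 lower became 11480 and 405, and 11558 and 227. At 9 h, 5104 and 5140 became 7533 and 2404.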
